A study of Caenorhabditis elegans with 2 samples.

Results

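The genes examined were the 70 protein-coding genes of Caenorhabditis elegans whose names start with mrpl- (41 genes) or mrps- (29 genes), of 19973 protein-coding genes on the nuclear chromosomes. The set was defined by gene name in the Ensembl annotation, and was chosen with earlier results of these data known. The genes are named for the large and the small subunit of the mitochondrial ribosome. The data came from chromatin immunoprecipitation followed by sequencing, which recovers the DNA bound by one protein. Strain OP513 carries the unc-119(tm4063) III allele and the integrated transgene wgIs513, which expresses the C08G9.2 protein with a GFP and FLAG tag at its C terminus. Whole hermaphrodite late embryos were collected 5 hours after egg bleaching, as 2 biological replicates of the same line, which form 1 group. Untagged worms were not analysed here. The precipitation used an antibody against GFP according to the description, while the antibody field of the labels names C08G9.2. The signal of a whole embryo pools all of its cells, so binding in few cells and weak binding in many cannot be told apart.

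The mitochondrial ribosome translates the few proteins that the mitochondrial genome encodes, which are core subunits of the respiratory chain. Its own proteins are encoded in the nucleus, made in the cytosol and imported. In the current naming of these proteins a leading u stands for proteins found in all domains of life, b for those shared with bacteria and m for those particular to mitochondrial ribosomes. Many worm genes are transcribed together as operons from 1 upstream promoter, in closely spaced runs on 1 strand.

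A gene counted as bound when a peak of the thresholded list had its summit within 500 bp of the gene start. That list was made by the authors with the irreproducible discovery rate, a method meant to keep regions ranked alike between replicates. The list is labelled optimal, and agreement of the replicates was not checked here for each of its peaks. It held 1416 peaks, which were also regions of the pooled list of 30000. The 1416 pooled regions of highest signal gave the same counts of bound genes. Replicate ranks at a bound gene can differ, as at the cytosolic ribosomal protein gene rpl-12 (2540 in replicate 1 and 700 in replicate 2). The lists of replicate 1 (27783 regions), replicate 2 (29382) and the pool hold peaks together with background, so a region there can be weak. Rank 1 is the highest signal of a list. The signal has no stated scale, so it is compared within a list only. The lists give no read counts and the sequencing depth is unknown.

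The strongest regions lay at mrps-35, mrpl-18 and mrpl-28, the bound members of the family. Their sequences are shown as the 101 bases centred on the pooled summit, on the strand of the gene, with those of mrpl-39 and mrpl-55, the next 2 members by signal, and of mrps-31. The build is ce11 (WBcel235), and the sequence is that of the RefSeq genome. Capitals mark a run of 13 bases that mrps-35 shares with mrpl-18 on the opposite strand and that mrps-31 also holds. In mrpl-28 they mark an E2F-like site, TTTCGCGC.
mrps-35 (chrV:18981119-18981219, plus strand): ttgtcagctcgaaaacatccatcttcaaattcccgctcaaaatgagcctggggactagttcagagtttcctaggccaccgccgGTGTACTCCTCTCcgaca
mrpl-18 (chrIII:8144729-8144829, plus strand): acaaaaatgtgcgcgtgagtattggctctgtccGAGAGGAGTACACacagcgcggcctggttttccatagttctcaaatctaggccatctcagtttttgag
mrps-31 (chrIII:3630458-3630558, minus strand): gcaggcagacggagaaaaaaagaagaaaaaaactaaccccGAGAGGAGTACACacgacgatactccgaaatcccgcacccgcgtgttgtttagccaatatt
mrpl-28 (chrII:156116-156216, minus strand): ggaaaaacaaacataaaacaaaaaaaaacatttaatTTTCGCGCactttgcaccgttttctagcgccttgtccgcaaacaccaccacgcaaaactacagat
mrpl-39 (chrV:1821434-1821534, plus strand): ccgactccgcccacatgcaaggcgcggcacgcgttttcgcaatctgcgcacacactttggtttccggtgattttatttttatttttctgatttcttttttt
mrpl-55 (chrIV:443805-443905, plus strand): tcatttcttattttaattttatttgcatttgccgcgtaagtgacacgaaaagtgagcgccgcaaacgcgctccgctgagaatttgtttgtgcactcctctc

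The gene mrps-35 (WBGene00012697, chromosome V, 18981306 to 18985865, plus strand) encodes mS35, a small-subunit protein particular to mitochondrial ribosomes. Its region had a signal of 294.7 in replicate 1 (rank 21), 258 in replicate 2 (rank 53) and 553 in the pool (rank 34 of 30000). The summit lay 137 bp upstream of the start, at -137 bp, and the pooled region ran from 18981031 to 18981317. Both replicates placed it among the highest-ranked regions of their lists. The peak was not particular to mrps-35, because the start of sws-1, which runs the other way, lies 173 bp from that of mrps-35 and within 500 bp of the same summit. The sws-1 start (18981479, minus strand) lies inside mrps-35, so the summit is downstream of it on the sws-1 strand.

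The gene mrpl-18 (WBGene00017044, chromosome III, 8145015 to 8145974, plus strand) encodes uL18m, the relative of a large-subunit protein that binds 5S ribosomal RNA in bacteria. Its region had a signal of 261 in replicate 1 (rank 41), 229 in replicate 2 (rank 78) and 484 in the pool (rank 61). The summit lay at -236 bp. It was shared with C14B9.8, a gene annotated as a putative phosphorylase kinase subunit, whose start lies 386 bp away on the opposite strand. The summit was nearer to the C14B9.8 start, so mrpl-18 lost its peak when each peak was given to its nearest start only.

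The gene mrpl-28 (WBGene00020796, chromosome II, 154881 to 156009, minus strand) encodes bL28m, a large-subunit protein of bacterial origin. Its region had a signal of 58.3 in replicate 1 (rank 853), 67.9 in replicate 2 (rank 905) and 131 in the pool (rank 756). The summit lay at -157 bp, and no other coding start lay within 500 bp of it. Its nearest other start, that of T25D3.3, was 3426 bp away. The replicates ranked this region alike, well below the regions of mrps-35 and mrpl-18. No non-coding gene start lay within 500 bp of any of these 3 summits.

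The run of 13 bases was noticed after the sequences were read, and no test was made on it. It was present, on either strand, in the 101 bp summit windows of 27 of 1416 thresholded peaks (1.91%), of 11 of the 100 peaks of highest signal (11%), and of 11 of 28584 pooled regions outside the thresholded list (0.0385%). It occurs 128 times in the nuclear genome. Within 500 bp of gene starts it was found for 3 of 70 members (4.29%), 0 of 78 cytosolic ribosomal protein genes and 64 of all 19973 genes (0.32%), and 31 of those 64 genes were bound. The run was defined by mrps-35 and mrpl-18, so these members hold it by construction and are part of each of these counts. Their neighbours sws-1 and C14B9.8 are bound through the same summits, so the gene counts are not counts of separate peaks. In mrpl-18 the centre of the run lay 11 bp before the summit, at -11 bp, and in mrps-35 it lay 39 bp after it. In mrps-31, which encodes mS31 of the small subunit, it lay 4 bp before the summit, at -4 bp. The mrps-31 region was nevertheless weak, with a pooled signal of 38.9 (rank 14309), a signal of 32.6 in replicate 2 (rank 6037) and no region in replicate 1. The last 13 bases of the mrpl-55 window differ from the run, as written for mrps-35, at 1 base. Their longest unbroken match to it is 9 bases. Near copies of this kind were not counted elsewhere.

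The E2F-like letters TTTCGCGC, searched on both strands, were in the summit windows of 26 of 1416 thresholded peaks (1.84%) and of 223 of 28584 other pooled regions (0.78%). Within 250 bp of the start they were found at mrpl-28 and mrps-16 among the 70 members (2.86%), against 1.61% of all protein-coding genes. The other letters searched there were CTGCGTCT, a promoter motif, and CACGTG, known as the E-box. TGACGTCA, the cyclic AMP response element, and TGATAA, bound by GATA factors, were searched as well. The last were TATAAA, the core promoter box, and GTTCNANNC, the B box of RNA polymerase III genes. These 6 were found at 3, 7, 1, 26, 31 and 9 members in that order, or 4.29%, 10%, 1.43%, 37.1%, 44.3% and 12.9%. Among all genes the shares were 4.20%, 9.28%, 2.41%, 42.7%, 50.4% and 15.8%. In the 6 windows printed above, the E2F-like letters at mrpl-28 were the only match to any of these.

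The lowest signal in the thresholded list was 97.0. The gene mrpl-39, for a large-subunit protein, came nearest to it with 93.8 in the pool (rank 1546), 44.3 in replicate 1 and 45.5 in replicate 2, and its summit lay at -95 bp. The gene mrpl-55 had 88.5 in the pool (rank 1767), 60.3 in replicate 1 (rank 800) and 38.05 in replicate 2 (rank 3874). Its replicate ranks belong to different summits, at -106 bp in replicate 1 and -324 bp in replicate 2. The gene mrpl-34 had 86.7 in the pool (rank 1869), 49.2 in replicate 1 (rank 1319) and 36.3 in replicate 2 (rank 4444). Both mrpl-55 and mrpl-34 lay within the 1416 highest regions of replicate 1 and outside those of replicate 2.

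The next members by pooled signal were mrps-17 (uS17m, signal 71.4, rank 3132), mrpl-4 (uL4m, signal 69.3, rank 3415) and mrps-18A (signal 64.4, rank 4124, with no region in replicate 2). They were followed by mrps-12, which encodes uS12m, a relative of the bacterial protein at the decoding centre (signal 64.2, rank 4147). After it came mrps-34 (signal 61.4, rank 4713), mrpl-49 (mL49, signal 59.5, rank 5112) and mrpl-30 (signal 53.7, rank 6650). The mrpl-49 region is also that of the cytosolic ribosomal protein gene rpl-28, whose start lies 519 bp away, so it counts in both families. The summits of mrpl-4 and mrpl-30 lay 392 and 159 bp after the start, and that of mrps-18A lay 22 bp after its own. The other 4 lay upstream. The remaining 25 members with a pooled region had signals from 26.4 at mrps-18B to 53.5 at mrpl-53.

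**Figure D1:**
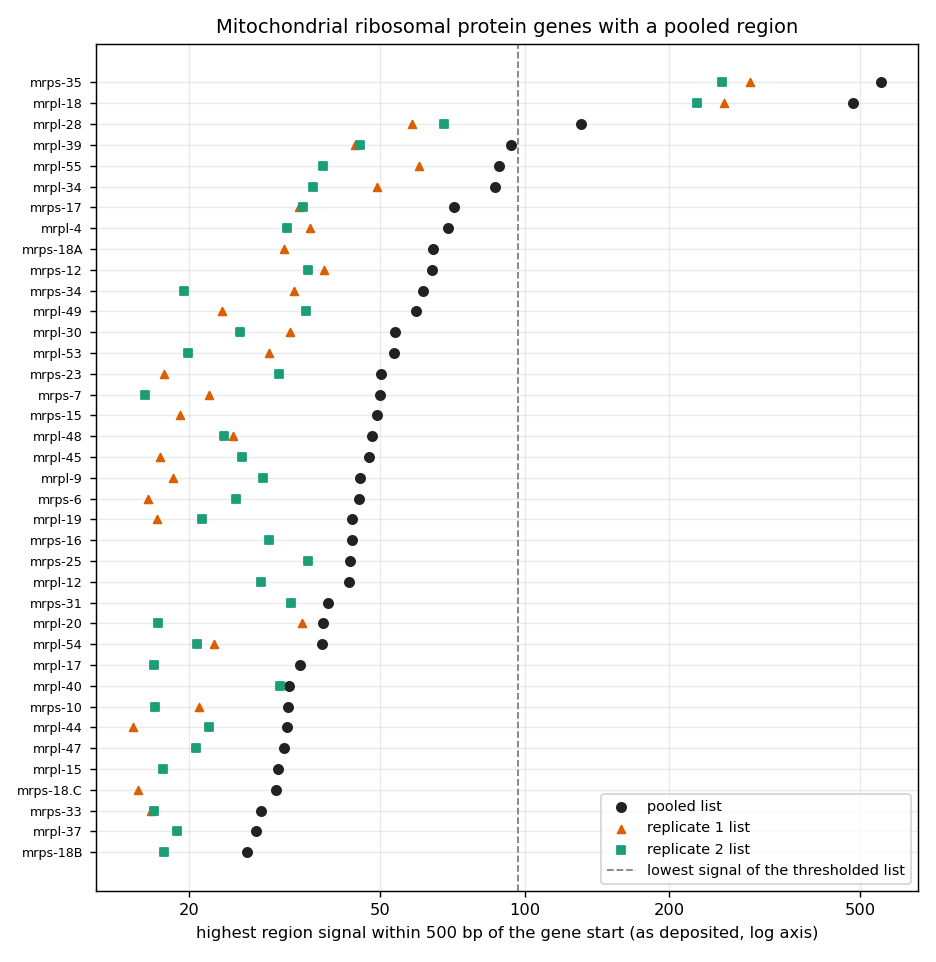
Highest region signal within 500 bp of the start (horizontal log axis, as deposited) for the 38 members with a pooled region, ordered by pooled signal, with the pooled list, replicate 1 and replicate 2 as separate symbols and a missing symbol where a replicate list has no region. The dashed line is the lowest signal of the thresholded list and applies to the pooled values, which exceed it at mrps-35, mrpl-18 and mrpl-28.

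The share of bound members was close to the background. In all, 3 of 70 members were bound (4.29%, 95% exact Clopper-Pearson interval 0.893 to 12.02), beside a background of 4.13% of all 19973 genes and 822 of the 19903 genes that are not members (4.13%). Of the 78 genes for cytosolic ribosomal proteins, named rpl- and rps-, 21 were bound (26.9%, 17.5 to 38.2). The interval of the members lay below that of the cytosolic genes. Intervals treat genes as independent, which neighbours are not, and cover counting error only. No test was made, because there is 1 group and genes are not replicates. With a window of 250 bp the cytosolic share fell to 8.97% (7 of 78), while the same 3 members stayed bound. By that window the intervals of the families overlapped. The same was true when each peak went to its nearest start only (members up to 9.94%, cytosolic genes from 9.18%). It was also true in the 708 peaks of highest signal and with replicate 2 left out. Genes with a pooled region, and genes with no upstream same-strand gene within 500 bp, gave an overlap as well. In the other alternatives run, apart from the first start of a run described below, the intervals stayed apart.

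By name, 2 of 41 mrpl- genes (4.88%, 0.596 to 16.5) and 1 of 29 mrps- genes (3.45%, 0.0873 to 17.8) were bound. These intervals overlap widely. The number of bound members rested on few genes. With a window of 1000 bp it was 6, the added genes being mrpl-12, mrpl-15 and mrpl-23, whose nearest thresholded summits lay at -509, -633 and -990 bp, and the share of other genes rose to 5.59%. Among the 48 members with no other coding start within 500 bp it was 1, mrpl-28, beside 3.09% of other genes. Taking the 1416 highest regions of replicate 1 alone gave 5, adding mrpl-34 and mrpl-55, beside 3.95% of other genes. Taking those of replicate 2 alone gave 3, beside 4.14%.

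Regions of the lists that include background were more frequent at the members than at other genes, and so were neighbouring starts. Many of these regions had low deposited −log10 q-values. The lowest in the thresholded list was 2.72, against pooled values of 1.11 at mrps-12, 0.227 at mrps-31 and 0.0451 at mrps-18B. By pooled signal mrps-12 is member 10 of 38 and mrps-31 member 26. Whether such regions reflect binding was not tested. Another coding start lay within 500 bp of 22 of 70 members (31.4%), beside 11.2% of all genes and 26.9% of cytosolic ribosomal protein genes. A region near such a pair of starts can count for both genes, and the part of this in the difference was not tested. A pooled region of any strength lay within 500 bp of 38 of 70 members (54.3%, 41.9 to 66.3), beside 32.2% of all genes and 84.6% of cytosolic ribosomal protein genes (74.7 to 91.8). The same held for the list of replicate 1, with 33 members (47.1%, 35.1 to 59.4) beside 30.1% of all genes. In replicate 2 it was 40 members (57.1%, 44.7 to 68.9) beside 31.8%. Within the 5000 highest regions of the pool the share was 15.7% of members (8.11 to 26.4), 9.16% of other genes and 43.6% of cytosolic genes. Within the 10000 highest it was 27.1% (17.2 to 39.1), 14.6% and 62.8% in the same order. Of the genes with a pooled region, 7.89% of members, 12.9% of other genes and 31.8% of cytosolic genes were bound. The median pooled signal of those genes was 46.4 for members, 43.04 for other genes and 63.2 for cytosolic genes.

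**Figure D2:**
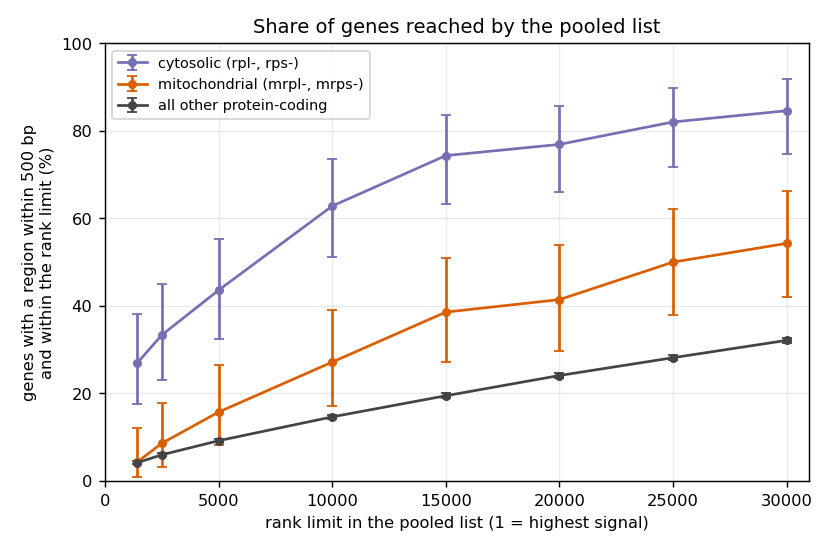
Share of genes (vertical axis, %) with a pooled region within 500 bp of the start that ranks within the limit on the horizontal axis (1 is the highest signal, and the first point is the size of the thresholded list), for mitochondrial and cytosolic ribosomal protein genes and all other protein-coding genes. Bars are 95% exact intervals: members and other genes start together at 4.29% and 4.13%, and at the last point they reach 54.3% and 32.1%, while the cytosolic genes lie above both throughout.

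Both replicate lists held a region at 27 of the 70 members (38.6%), beside 19.7% of all genes. A region in replicate 2 only was found at 13 members and 2427 of all genes, and in replicate 1 only at 6 members and 2075 of all genes. Across the 27 members Spearman's rho of signal between replicates was 0.658, and across the 3932 genes with a region in both it was 0.649. These values are across genes, some of which share a region, and are descriptions. The highest region was taken from each list separately, so the signals of a gene can belong to different regions. At mrpl-48, for example, the summits lay at -379 bp in replicate 1 and 367 bp in replicate 2. Among these 27 members, place as a percentage of the list length differed most for mrpl-20 (rank 3653 in replicate 1 and 25461 in replicate 2), mrps-34 (4118 and 20493) and mrps-7 (12405 and 28060). At mrps-7 the ranks belong to different regions, with summits at 123 bp in replicate 1 and -315 bp in replicate 2. In these 3 genes replicate 1 gave the higher place.

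No pooled region lay within 500 bp of the start of 32 members. Of these, 24 had no region in any list (34.3% of members, beside 56.2% of all genes). They were mrpl-1, mrpl-16, mrpl-21, mrpl-22, mrpl-23, mrpl-24, mrpl-32, mrpl-35, mrpl-38, mrpl-41, mrpl-42, mrpl-46, mrpl-51, mrps-2, mrps-5, mrps-9, mrps-11, mrps-14, mrps-18C, mrps-21, mrps-22, mrps-24, mrps-26 and mrps-30. The other 8, mrpl-2, mrpl-10, mrpl-11, mrpl-13, mrpl-36, mrpl-50, mrps-27 and mrps-28, had a region in 1 or both replicate lists only. No thresholded summit lay inside any member gene (0 of 70), beside 2.23% of all genes, a share at which few of 70 genes would hold one. Gene length was not taken into account.

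Members that closely followed another gene had fewer regions than the rest, a difference that was not tested. In 29 of 70 members (41.4%) the nearest upstream gene on the same strand overlapped the member or ended within 500 bp of its start, against 20.9% of all genes and 10.3% of cytosolic ribosomal protein genes. Such a gene ended 60 to 150 bp away for 19 members (27.1%, against 6.64% of all genes), a range chosen after the distances were seen. Of these 29 members 0 were bound, which allows a share of up to 11.9% (upper exact 95% bound), and 9 (31.0%) had a pooled region. Of the other 41 members 3 were bound (7.32%) and 29 (70.7%) had a pooled region. Among all genes the same split gave pooled regions at 29.8% and 32.8%, and bound genes at 2.52% and 4.55%.

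**Figure D3:**
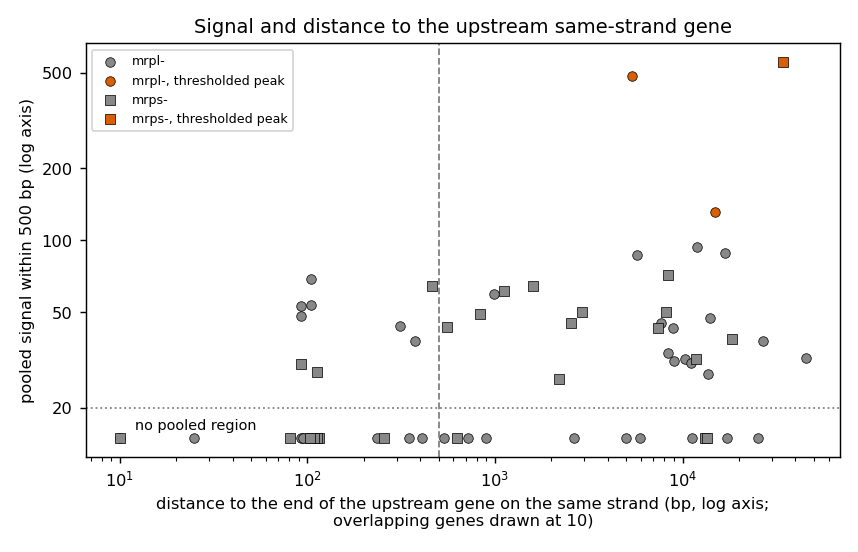
Pooled signal within 500 bp of the start (vertical log axis) against the distance to the end of the nearest upstream gene on the same strand (horizontal log axis, bp) for the 70 members, with circles for mrpl- and squares for mrps- genes, and bound members in orange. Points under the dotted line have no pooled region, the dashed line is 500 bp, and the 3 bound members all lie to its right.

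For those 29 members the start of the first gene of the run was then examined, going upstream as long as each gene lay within 500 bp of the next. This count was added after the spacing was seen. The first gene was bound for 7 of the 29 (24.1%, 10.3 to 43.5), beside 8.76% of all genes placed in this way. The peaks were those of F29B9.11 upstream of mrps-21 (signal 735, rank 8), eif-3.E upstream of mrps-30 (444, rank 81) and tag-124 upstream of mrpl-53 (415, rank 96). The remaining peaks were those of T14B4.3 upstream of mrps-18.C (246, rank 288), cct-2 upstream of mrpl-50 (189.6, rank 420), clsp-1 upstream of mrpl-54 (121, rank 872) and nrde-2 upstream of mrps-14 (99.1, rank 1346). F29B9.11 is annotated as a subunit of cytochrome c oxidase, eif-3.E encodes a subunit of a translation initiation factor of the cytosol, tag-124 a putative pseudouridine synthase of transfer RNA, and cct-2 a chaperonin subunit. The distance from these starts to the member ranged from 684 bp at mrps-21 to 6330 bp at mrpl-53.

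With every gene placed by the first start of its run, 10 of 70 members were bound (14.3%, 7.07 to 24.7), beside 5.43% of all genes and 29.5% of cytosolic genes. The interval of the members then overlapped that of the cytosolic genes (19.7 to 40.9). Whether the runs are transcribed as operons was not tested, since the annotation used gives spacing and strand only.

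The bound members lay on 3 different chromosomes. Of all genes, 6.01% were bound on chromosome I, 4.76% on II, 5.91% on III, 3.72% on IV, 2.38% on V and 3.33% on X. Pooled regions were found at 42.0%, 33.3%, 41.1%, 28.6%, 23.2% and 32.5% of all genes in the same order. There were 15 members on chromosome I (0 bound, 9 with a pooled region), 12 on II (1 and 7), 22 on III (1 and 12), 11 on IV (0 and 4), 10 on V (1 and 6) and 0 on X. The GC content within 250 bp of the start had a median of 35.3% for members, 35.4% for all genes and 37.8% for cytosolic genes. Pooled summits lay upstream of the start for 24 of 38 members (63.2%), 59.7% of all genes with a region and 81.8% of the cytosolic genes with one. The median positions were -132.5, -80 and -249 bp in that order.

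Other genes of mitochondrial gene expression and import were counted from lists written for this purpose, and some names in the lists had no match in the annotation. Their counts stand beside the background of 4.13% of all genes. Of 9 matched genes listed for mitochondrial translation 3 were bound (33.3%, 7.49 to 70.1): tufm-2, whose RefSeq product is a GTPase of protein synthesis (signal 401), gfm-1, for mitochondrial elongation factor G (273), and icd-2 (104). The product of icd-2 belongs to the nascent polypeptide-associated complex of the cytosol, and without it the count was 2 of 8. The list also holds dap-3, oxa-1, a membrane insertase gene, and mma-1, for a PPR motif protein, and 2 of the 5 remaining translation factor genes were bound (5.27 to 85.3). The gene dap-3, which encodes the small-subunit protein mS29 under another name, had a pooled signal of 27.6 (rank 26812) and no peak. Of 14 synthetase genes, which charge transfer RNA, 3 were bound (21.4%, 4.66 to 50.8): ears-2 (524), kars-1 (303) and yars-2 (165). Their RefSeq names place only ears-2 of these in mitochondria.

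Of 7 genes of mitochondrial DNA maintenance and transcription 2 were bound (28.6%, 3.67 to 71.0), atad-3, for a mitochondrial ATPase (564, rank 28), and mtss-1, for a single-stranded DNA-binding protein (169). Of 15 import genes 3 were bound (20%, 4.33 to 48.1): mppb-1, for a subunit of the peptidase that removes targeting sequences (447), tomm-20, for an import receptor (122), and ddp-1, for a small chaperone of the intermembrane space (120). Of 14 genes listed for mitochondrial chaperones, proteases and stress responses 0 were bound (upper 95% bound 23.2%), and 10 had a pooled region, with the highest signal of 86.5 at the prohibitin gene phb-2. That list holds the transcription factor genes atfs-1 and dve-1, ubl-5, for a ubiquitin-like protein, haf-1, for a transporter, and trap-1, whose RefSeq product is a translocon-associated protein. Of the other 9 genes 0 were bound (upper bound 33.6%) and 6 had a pooled region. These reduced counts were made after the values were seen. The interval of each list overlapped that of the members. The lower bounds for translation with icd-2 counted, synthetases and import (7.49%, 4.66% and 4.33%) lay above the background. The lists were chosen with earlier results of these data known, so this is a description and no test of a difference. The peaks of tufm-2, gfm-1 and ears-2 were shared with the starts of exoc-7, rict-1 and uncp-18.

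**Figure D4:**
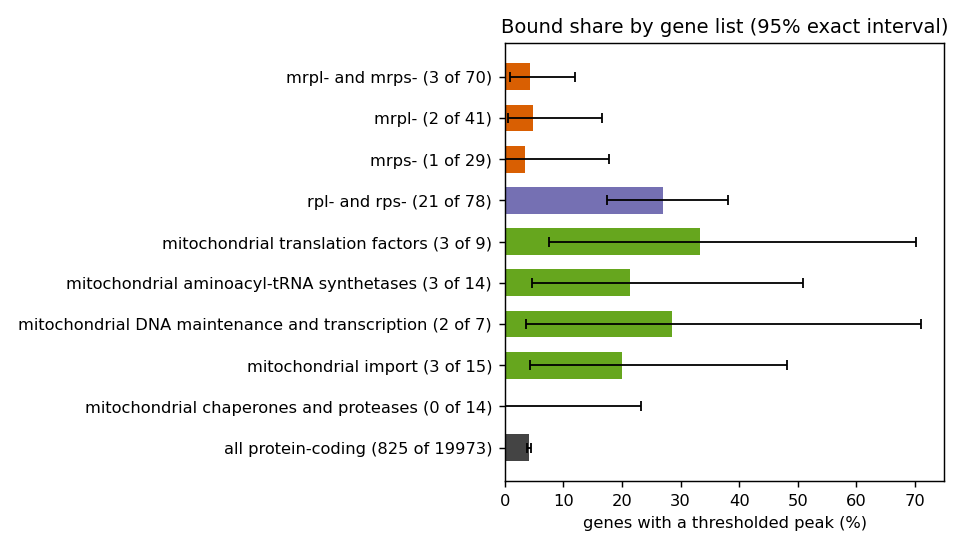
Share of bound genes (horizontal axis, %) for the members in orange, cytosolic ribosomal protein genes in purple, other mitochondrial lists in green (as listed, with the genes of other classes named above) and all protein-coding genes in grey, with bound and total genes in brackets. Bars start at 0 and whiskers are 95% exact intervals: the members lie at 4.29%, all genes at 4.13% and the cytosolic genes at 26.9%.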

How the data were processed

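The authors deposited region lists, not reads, and only the ce11 lists were used. Per the deposited text records, regions were called for each replicate and for the pool from alignments and 1 further file that the records do not describe (the labels list a possible control), and the thresholded list came from the irreproducible discovery rate. Aligner, caller and settings: not given in the sources used here. Every deposited region has a signal of unstated scale, a −log10 q-value (used in no test) and a summit offset. The depth is unknown.

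Gene starts are the 5′ ends of gene records of Ensembl release 115 (WBcel235, the assembly of ce11), and coordinates are 1-based. Protein names and sequence came from RefSeq, which matched all 70 members. For each gene the region of highest signal with a summit within 500 bp was taken from each list. Shares have 95% exact Clopper-Pearson intervals. Summit assignment was tested on simulated data. The members and lists were chosen with earlier results of these data known. Text names every bound member, the 10 next by signal, the 3 whose place differed most between replicates and those without a region. Python 3.11.15, scipy 1.17.1, numpy 2.4.6 and pandas 2.3.3 were used.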

Additional observations from a re-analysis of the deposited data

How the results depend on the processing

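The number of bound members was 3 and their share exceeded that of other genes by 0.156 percentage points. The number was 6 with a 1000 bp window, 1 among genes whose start stood alone within 500 bp and 10 when genes were placed by the first start of their run, an alternative chosen after seeing the data. Leaving out a replicate gave 3 to 5, a difference of 0.151 to 3.19 points and a share of other genes of 3.95% to 4.14%. The difference turned to -0.374 points by nearest start only, -0.211 with any transcript start, -1.004 among genes whose start stood alone and -4.97 among genes with a pooled region, and rose to 8.88 by first start of the run. The cause of these moves was not tested beyond the construction of each alternative.

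The bound share of other genes, 4.13%, was 2.52% with a 250 bp window, 5.59% with 1000 bp, 3.23% by nearest start and 4.50% with any transcript start. It was 3.09% for starts standing alone, 4.55% with no close upstream gene, 12.9% with a pooled region and 2.54% in the 708 peaks of highest signal. It was 4.75% by region overlap, 3.79% without summits near small-RNA genes and 5.40% by first start of the run. The cytosolic share, 26.9%, was 8.97% with a 250 bp window and 16.7% both by nearest start and in the 708 peaks, and 24.4% to 25.6% when a replicate was left out; it was above the member share under every alternative run. No paired analysis was possible because there is 1 group and no fit. Depth limits could not be given.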

Other observations

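In 8 members the nearest thresholded summit lay beyond 500 bp and at most 1641 bp from the start, a limit taken from these distances. The share of all genes in that range was not counted, so the number has no background beside it. The strongest of these summits was the F29B9.11 peak described above, which lay at -1089 bp relative to mrps-21 (signal 735, rank 8). The thresholded summit nearest to mrps-28 lay at -1005 bp (signal 372, rank 125) and that nearest to mrpl-15 at -633 bp (signal 266, rank 241). The one nearest to mrps-18.C was the T14B4.3 peak described above, at -1337 bp (signal 246, rank 288). That nearest to mrps-6 lay at -1170 bp (signal 106, rank 1151). Those nearest to mrpl-12 and mrpl-23 lay at -509 bp (signal 129, rank 779) and -990 bp (signal 124, rank 832). The one nearest to mrps-12 lay 1641 bp after its start (signal 166, rank 520). The median distance from a start to the nearest thresholded summit was 15460.5 bp for members, 7501 bp for cytosolic ribosomal protein genes and 28194 bp for all genes.

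Some member genes lay next to each other. The starts of mrps-2 and mrpl-4 were 1579 bp apart on 1 strand of chromosome V, in a run that begins at natc-1, and mrps-22 followed dap-3 at a distance of 105 bp. In a few members the name and the RefSeq product differ. The product of mrpl-34 is mL43, and that of mrps-18C, a name of the small subunit, is the large-subunit protein uL3m.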
